A study of Arabidopsis thaliana with 5 samples.

Results

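The genes described here encode 6-phosphogluconate dehydrogenase, and they are AT1G64190, AT3G02360 and AT5G41670. They were chosen by name, each through the single probe set that the platform annotation assigns to it, and so make up 3 of the 13350 genes named on the array. Expression was measured in Arabidopsis thaliana on 5 Affymetrix arrays, 3 of the ecotype Columbia and 2 of the ecotype Landsberg erecta, the latter a line that carries a mutant ERECTA allele. All plants were raised in a greenhouse and clipped as they bolted, which imitates grazing by a mammal, and the labels give the tissue as secondary meristem. According to the series' design text the ecotypes were picked because they compensate differently for damage, and material was taken a day after clipping. The labels call the arrays biological replicates but do not say how many plants each represents. Both groups were clipped, so only the ecotypes are compared, and unclipped plants were not analysed here.

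6-Phosphogluconate dehydrogenase catalyses the last step of the oxidative branch of the pentose phosphate pathway. It oxidises and decarboxylates 6-phosphogluconate to ribulose 5-phosphate and forms NADPH, the reductant for biosynthesis and for antioxidant systems. Glucose-6-phosphate dehydrogenase and 6-phosphogluconolactonase act before it, and the enzymes of the non-oxidative branch turn its product into precursors of nucleotides and aromatic compounds or return it to glycolysis. In Arabidopsis the products of AT1G64190 and AT5G41670 have been placed in plastids and the cytosol, and that of AT3G02360 in the cytosol and peroxisomes. The study ties the oxidative branch to regrowth after clipping. RefSeq lists 1 transcript of AT1G64190, 2 of AT3G02360 and 4 of AT5G41670, and the probe sets do not tell transcripts of a gene apart here.

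The arrays as a whole set the limits of what can be read from these genes. Array medians of the log2 values lay between 5.44 and 5.50, and the lowest value, 2.15, was shared by all arrays. Of 11 listed shoot meristem markers, 2 had a probe set named for that gene alone, CLV3 and LAS. Listed genes without such a probe set were not analysed, though unnamed probe sets may measure them. CLV3 and LAS both sat at that shared minimum on all 5 arrays. Between 24.4% and 25.2% of all probe sets sat there on each array, so these 2 cannot tell whether meristem was present. The 2 of 10 green leaf markers with a named probe set were far above this minimum. Their list medians ran from 14.20 to 14.23 in Columbia and from 13.99 to 14.06 in Landsberg erecta. The log2 ratio of the 3 prime to the 5 prime GAPDH control lay at 0.89, 0.92 and 0.98 on the Columbia arrays but at 1.25 and 1.22 for Landsberg erecta (two-sided p = 0.1 by exact permutation, which with 10 splits of the arrays can go no lower). The 25S ribosomal RNA control also separated the ecotypes, with 7.77 to 8.17 in Columbia against 6.53 to 7.16 (also p = 0.1 by exact permutation). RNA came from whole tissue samples, in which fewer cells of a type and less RNA per cell cannot be told apart.

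No difference larger than the spread between arrays was detected between the clipped ecotypes for any of the 3 genes. Ecotype means lay at most 0.08 apart (log2), and in each gene the values of the ecotypes overlapped. By limma with Benjamini-Hochberg adjustment over 22746 probe sets, 0 of the 3 genes were called, against 0% of all probe sets (percent called at an adjusted p under 0.05). At an unadjusted p under 0.05, limma also gave 0 of the 3, against 1.78% of all probe sets. Values of the ecotypes were free of overlap in 0 of the 3, against 6.84% of all probe sets.

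AT1G64190 was the steadiest of the genes. Its pooled SD within ecotypes was 0.074, against 0.117 for AT3G02360 and 0.178 for AT5G41670, and among the 11373 probe sets whose mean exceeded the median of all, 14.6%, 31.6% and 56.2% had a smaller one. Its log2 values were 10.25, 10.25 and 10.40 on Columbia replicates 1 to 3, and 10.22 and 10.25 on Landsberg erecta replicates 1 and 2. Columbia replicate 3 stood above the other arrays, and the value of 10.25 was the same to the last deposited digit on 3 arrays of both ecotypes. Of those 11373 probe sets, 14.8% likewise held 1 value on at least 3 arrays, which may make the spread of such a gene look smaller than it is. Columbia averaged 10.30 ± 0.09 (SD, n = 3), and Landsberg erecta 10.23 ± 0.02 (SD, n = 2). The difference, Columbia minus Landsberg erecta, was 0.07 with a standard error of 0.06 (limma adjusted p = 1). Its 95% interval corresponded to a ratio between 0.918 and 1.20, so a 2-fold difference in either direction lay outside it. Without Columbia replicate 3 the difference was 0.02. Markers of other tissues varied between the arrays too. AMS, of the anther tapetum, was lowest on Columbia replicate 3, at 4.95, against 6.51 and 6.76 on the other Columbia arrays and 5.97 and 6.96 in Landsberg erecta. EMS1, a receptor kinase gene of tapetum specification, was also lowest there, at 3.34, against 4.93 to 5.74 elsewhere. GUT2, of secondary wall synthesis, had 5.79, 6.88 and 8.27 on Columbia replicates 1 to 3 and 7.68 and 8.01 in Landsberg erecta, so that Columbia replicate 1 lay farthest from the others. SPL, of early anther development, had 2.80 on all Columbia arrays. Only 1 of 5 secondary wall markers and 3 of 5 anther markers had a named probe set. Their part in the value of AT1G64190 was not tested.

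AT3G02360, the gene with a peroxisomal product, had the widest range of the 3 within Columbia. Its log2 values were 11.07, 11.32 and 11.27 on Columbia replicates 1 to 3, and 11.16 and 11.26 on Landsberg erecta replicates 1 and 2. Both Landsberg erecta values fell inside the range of the Columbia values, whose lowest was replicate 1. The means were 11.22 ± 0.13 (SD, n = 3) and 11.21 ± 0.07 (SD, n = 2), and they differed by 0.01 with a standard error of 0.10 (limma adjusted p = 1). The 95% interval of the difference ran from -0.29 to 0.32, a ratio between 0.819 and 1.24. The sign of so small a difference was not stable: it was -0.036 without Landsberg erecta replicate 1, -0.038 without Columbia replicate 2 and -0.0096 without Columbia replicate 3, while it was 0.090 without Columbia replicate 1.

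AT5G41670 varied most within Landsberg erecta, whose arrays had both its lowest and its highest value. Its log2 values were 10.17, 10.23 and 10.31 on Columbia replicates 1 to 3, and 10.11 and 10.52 on Landsberg erecta replicates 1 and 2. All Columbia values therefore lay between those of the Landsberg erecta arrays. The gap of 0.41 between the Landsberg erecta arrays was wider than that of 83.5% of the 11373 probe sets above the median level, whereas the range of 0.14 within Columbia was wider than that of 28.7%. Columbia averaged 10.24 ± 0.07 (SD, n = 3), and Landsberg erecta 10.31 ± 0.29 (SD, n = 2). The difference was -0.08 with a standard error of 0.15 (limma adjusted p = 1), and its 95% interval corresponded to a ratio between 0.690 and 1.31. The result rested on which Landsberg erecta array was used. Without replicate 1 the difference was -0.28 (limma adjusted p = 0.461, unadjusted p = 0.0521), and without replicate 2 it was 0.13 (limma adjusted p = 1), with the lone remaining array assumed to vary like the Columbia arrays. Over all alternatives fitted with limma the adjusted p of this gene ranged from 0.461 to 1.

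**Figure D1:**
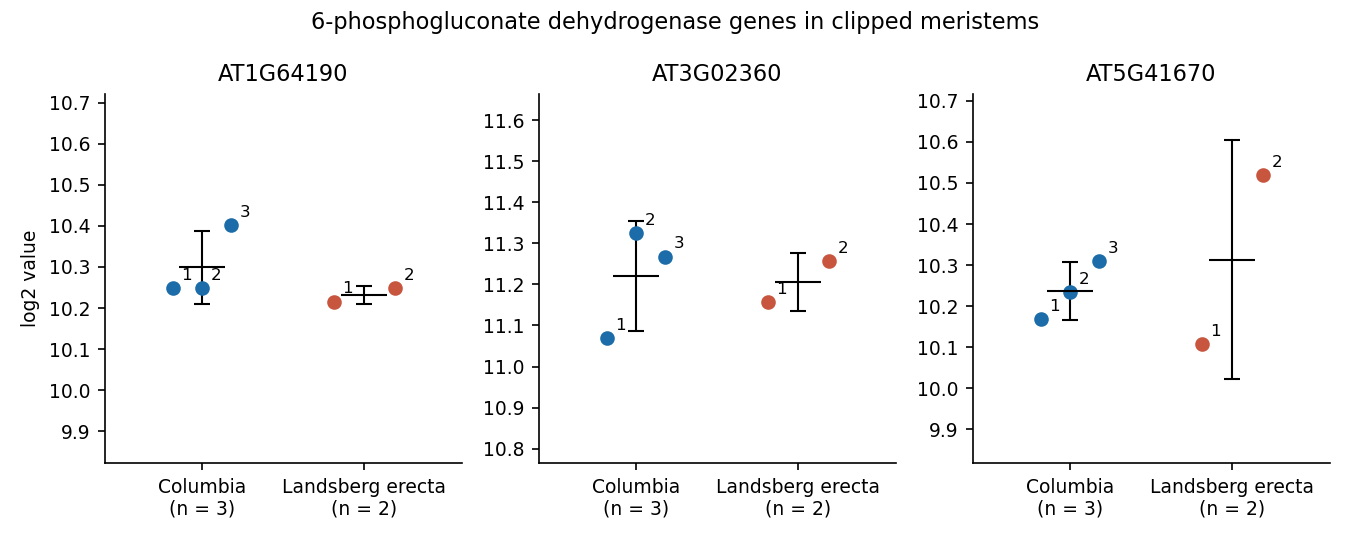
Log2 values of AT1G64190, AT3G02360 and AT5G41670 on each array, with Columbia in blue and Landsberg erecta in red. The number beside a point is the replicate, the black dash is the ecotype mean and the bars are 1 SD (n = 3 and n = 2). Each panel spans the same width on the log2 scale around its own gene. The ecotypes overlap in every panel, and in AT5G41670 the Landsberg erecta arrays, at 10.11 and 10.52, lie on either side of all Columbia arrays.

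Exact permutation of the ecotype labels over the 10 splits, two-sided, gave p = 0.6 for AT1G64190, p = 0.9 for AT3G02360 and p = 0.8 for AT5G41670. This test cannot go below 0.1 with 3 arrays against 2. Under the alternatives fitted with limma, the differences ranged from 0.02 to 0.09 for AT1G64190, from -0.04 to 0.09 for AT3G02360 and from -0.28 to 0.13 for AT5G41670. None of the 3 was called in any of them, which says little where no probe set at all was called. It also says little where 1 Landsberg erecta array was left, since the spread then came from the Columbia arrays alone. The fits that called any were those without Landsberg erecta replicate 1, with 1014 probe sets (4.46%), and without replicate 2, with 935 (4.11%).

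**Figure D2:**
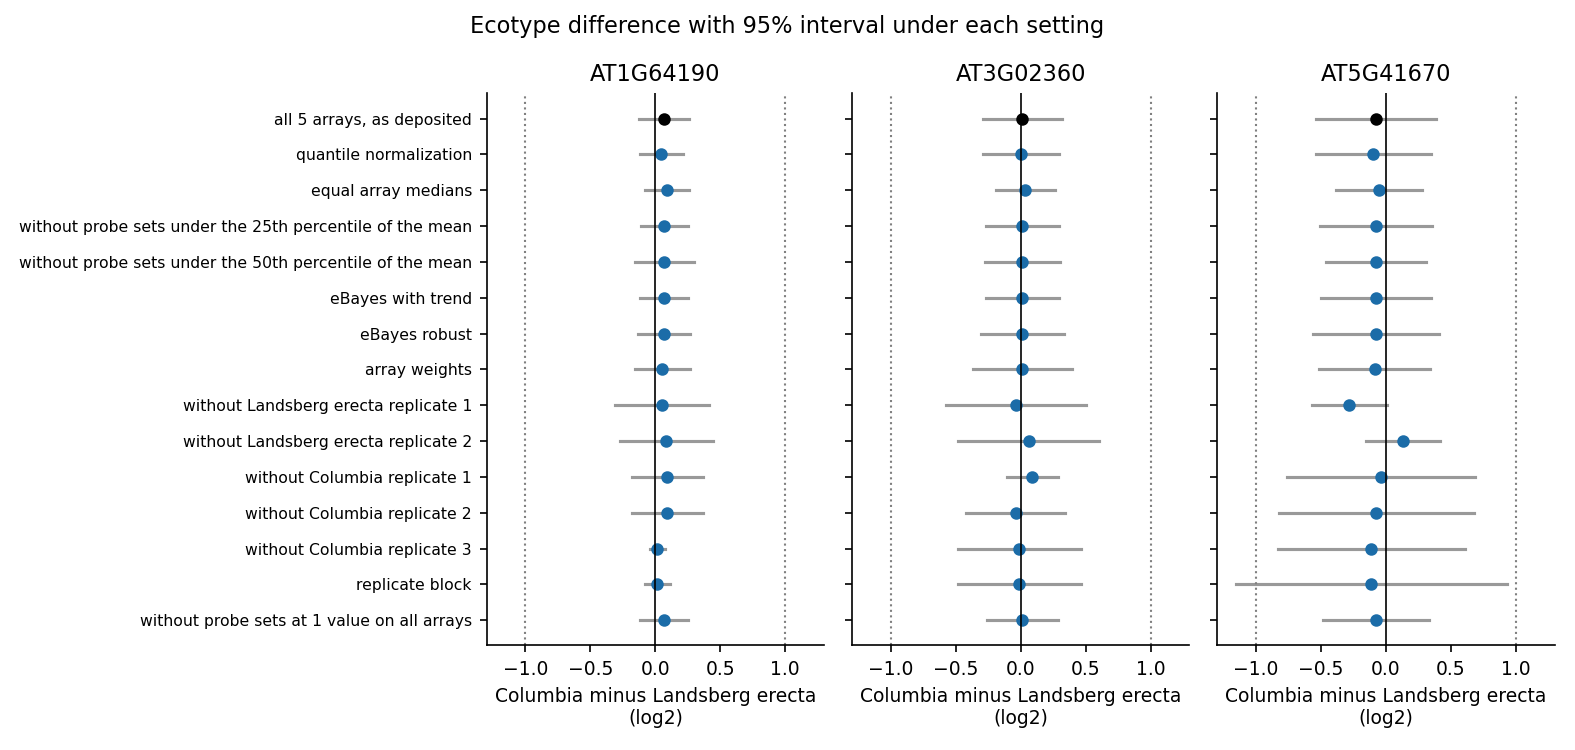
Difference between the ecotypes (Columbia minus Landsberg erecta, log2) for each gene, as a point with its 95% limma interval, over all 5 arrays (black) and under each alternative (blue). The dotted lines mark a 2-fold difference. Points of AT1G64190 stay between 0.02 and 0.09, whereas AT5G41670 moves from -0.28 to 0.13 when either Landsberg erecta array is left out.

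The genes were then compared with each other by their changes from array to array, since levels of different probe sets are not comparable. On Landsberg erecta replicate 1 and on Columbia replicate 1 all 3 genes were below their own mean over the arrays, with an average deviation of -0.09 on each of these arrays. On Columbia replicate 3 all 3 were above it, by 0.07 on average. Landsberg erecta replicate 2 had an average of 0.09, mostly through AT5G41670 at 0.25 above its mean, while AT1G64190 was at -0.02. AT1G64190 had that same deviation on Columbia replicates 1 and 2, where its value was identical. The median deviation of the 11373 probe sets above the median level stayed between -0.0045 and 0.0074 on the 5 arrays. A median over so many probe sets can stay small while single ones move. Their median range over the arrays was 0.42, against 0.19 for AT1G64190, 0.26 for AT3G02360 and 0.41 for AT5G41670. These deviations are a description of 5 arrays and were given no test.

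The ecotype difference did not differ detectably between any pair of the genes. For each of the 3 pairs, the log2 gap between the genes was taken within each array and compared between the ecotypes. In Columbia, AT1G64190 minus AT3G02360 was higher by 0.05, AT1G64190 minus AT5G41670 by 0.14 and AT3G02360 minus AT5G41670 by 0.09. Each gave a two-sided p of 0.6 by exact permutation, also 0.6 after adjustment over the 3 pairs, and the smallest possible p was again 0.1. The gaps varied over the 5 arrays by 0.26, 0.38 and 0.35 from the lowest to the highest. With single arrays left out, AT1G64190 minus AT3G02360 differed by 0.0034 (without Columbia replicate 1) to 0.131 (without Columbia replicate 2). It was 0.087 and 0.020 without Landsberg erecta replicates 1 and 2, and 0.026 without Columbia replicate 3. The differences for both pairs that included AT5G41670 changed sign without Landsberg erecta replicate 2, to -0.047 with AT1G64190 and -0.067 with AT3G02360.

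Each gene had other genes whose mean-centred values lay nearer to its own than those of the other 6-phosphogluconate dehydrogenase genes. With so many candidates to pick from, this was likely from the outset. Likeness was the root mean square difference between mean-centred log2 values over the 5 arrays, among 6013 other probe sets of 1 gene each with a mean above the median and a value that varied. The genes closest to AT1G64190 were AT4G32140 (0.0046), VPS22, a subunit of an endosomal sorting complex (0.010), and AT5G54830 (0.013). Like AT1G64190, VPS22 had 1 repeated value (7.68) on Columbia replicates 1 and 2 and Landsberg erecta replicate 2. AT5G54830 had 6.09 on all arrays but Columbia replicate 3, and AT4G32140 repeated 6.59 on Columbia replicate 2 and Landsberg erecta replicate 2. Those closest to AT3G02360 were AT3G06330 (0.021), AT2G31820 (0.021) and AT2G25430 (0.028). Those closest to AT5G41670 were AT1G63010 (0.029), CSLC6 of the cellulose synthase-like family (0.030) and psaB, a plastid gene for a core protein of photosystem I (0.030). From AT1G64190, AT3G02360 lay at 0.093 and AT5G41670 at 0.141, where 15.8% and 40.2% of the probe sets were closer. By this measure a probe set that did not change at all would lie 0.066 from AT1G64190. It would lie 0.091 from AT3G02360 and 0.142 from AT5G41670, so these shares also count probe sets that hardly varied. AT3G02360 and AT5G41670 lay 0.124 apart. The closest genes were picked from many candidates on 5 arrays, so their closeness is a description of these arrays.

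**Figure D3:**
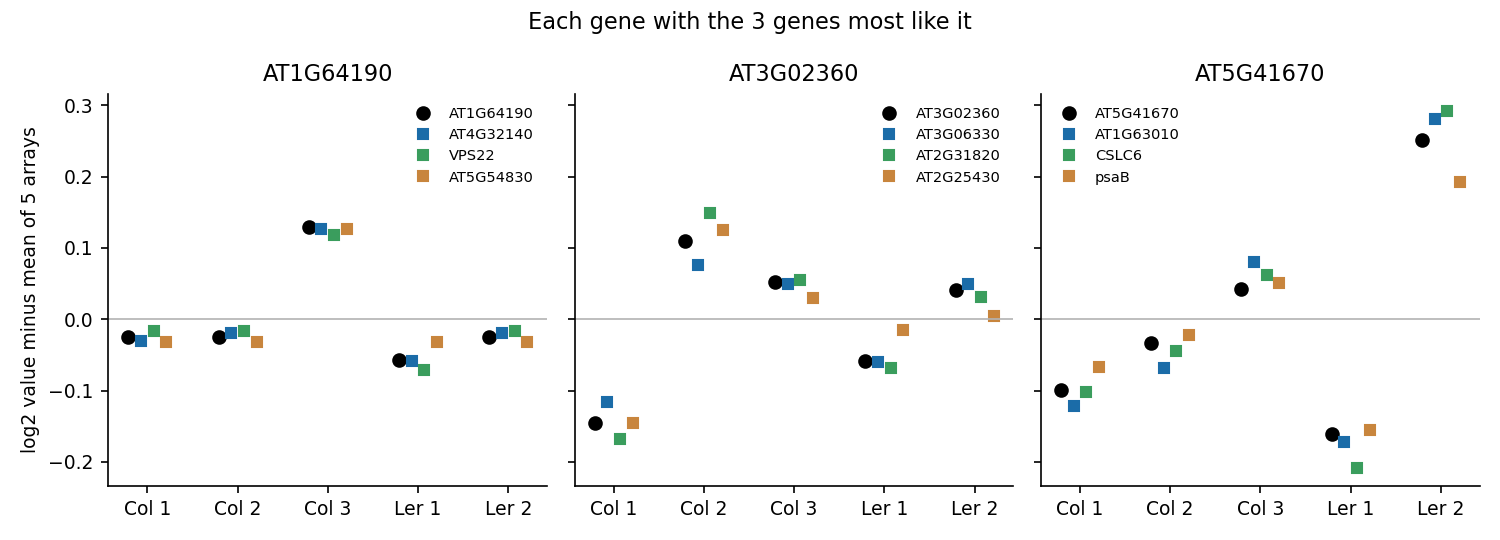
Log2 value minus the mean over the 5 arrays for each 6-phosphogluconate dehydrogenase gene (black circles) and the 3 genes most like it (coloured squares), on Columbia (Col) and Landsberg erecta (Ler) replicates. AT1G64190 has 1 high array, Columbia replicate 3, AT3G02360 is lowest on Columbia replicate 1, and AT5G41670 spans 0.41 between the Landsberg erecta arrays.

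Other genes of the pathway were read from lists of 66 genes, of which 17 had a named probe set. None of the 11 listed genes of glucose-6-phosphate dehydrogenase and 6-phosphogluconolactonase was among them, nor any of the 7 phosphofructokinase genes, and these were not analysed here. No pathway gene was called by limma in either direction after adjustment (0 of 17) or at an unadjusted p under 0.05 (0 of 17). The shares of all probe sets at that p were 1.17% with Columbia higher and 0.62% with Landsberg erecta higher. Columbia had the higher mean for 15 of the 17 and Landsberg erecta for the other 2, with a median difference of 0.11. Of all probe sets with a value that varied, 16428 in number, 8742 were higher on average in Columbia and 7686 were lower, with a median difference of 0.0039. The median over the 3 6-phosphogluconate dehydrogenase genes was 0.01. Without Landsberg erecta replicate 1 the count for Columbia fell to 11 of the 17 and the median to 0.072, and without replicate 2 they were 14 and 0.167. The ecotypes did not overlap, with Columbia higher, for 3 of the 17, against 3.92% of all probe sets, and with Landsberg erecta higher for 0 of the 17, against 2.92%. All 17 genes varied, whereas 27.8% of all probe sets held 1 value on every array. Those could not be free of overlap, which lowers the shares of all probe sets. Green leaf markers lay in the same direction: RCA, of Rubisco activation, and LHCB4.1, a light-harvesting protein, were higher on every Columbia array than on either Landsberg erecta array, by 0.17 and 0.20 (limma adjusted p = 1 for each). Their part in the pathway values, and that of the GAPDH and 25S controls, was not tested.

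The non-oxidative branch, which receives ribulose 5-phosphate, was read from the 4 of its 11 listed genes with a named probe set. Their differences ran from 0.0047 to 0.27, with a median of 0.10. The median was 0.209 without Landsberg erecta replicate 1 and 0.0088 without replicate 2. AT1G12230, listed as a transaldolase gene, had 9.37, 9.15 and 9.15 in Columbia, without overlap with 9.02 and 8.89 in Landsberg erecta (difference 0.27, 95% interval from -0.04 to 0.57, limma adjusted p = 1). AT5G44520, listed for ribose 5-phosphate isomerase, had 7.36, 7.44 and 7.53 in Columbia and 7.36 and 7.23 in Landsberg erecta, so that the ecotypes met at 1 shared value. The genes listed for ribulose 5-phosphate epimerase, AT3G01850 and AT1G63290, differed by 0.05 and by 0.0047. AT1G63290 had 1 value, 8.31, on all Columbia arrays, between 8.50 and 8.11 on the Landsberg erecta arrays. Its difference was therefore 0.20 without Landsberg erecta replicate 1 and -0.19 without replicate 2. Each of these fits left 1 Landsberg erecta array, so the spread came from Columbia alone, where this gene had none. Calls of this gene in these fits therefore say little.

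Other enzymes that form NADPH were represented by 4 of 8 listed genes, all with higher means in Columbia (median difference 0.21). ICDH, a peroxisomal NADP-dependent isocitrate dehydrogenase, had 7.53, 7.75 and 7.38 in Columbia and 7.40 and 7.01 in Landsberg erecta. The means were 0.35 apart (95% interval from -0.22 to 0.92, limma adjusted p = 1). AT5G14590, listed for an organellar form of the same enzyme, had 8.89, 8.66 and 8.60 in Columbia and 8.53 and 8.51 in Landsberg erecta, without overlap. Among 3 measured enzymes that use NADPH, NTRC, the plastid thioredoxin reductase, had 10.26, 10.35 and 10.31 in Columbia and 10.14 and 9.84 in Landsberg erecta, also without overlap (difference 0.32, 95% interval from -0.01 to 0.65, limma adjusted p = 1). GR1, a glutathione reductase, differed by 0.14.

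Of the 4 measured users of ribose or erythrose phosphate, 2 had a higher mean in each ecotype. AT1G22410, listed for the entry enzyme of aromatic amino acid synthesis, had a difference of -0.14, and AT2G42910, AT2G35390 and AT2G44530, listed for phosphoribosyl pyrophosphate synthetase, had differences of -0.0057, 0.0050 and 0.06. On the supply side, AT5G42740, listed for cytosolic glucose-6-phosphate isomerase, differed by 0.22, and AT5G17630, listed for a plastid pentose phosphate transporter, by 0.09. The 95% intervals of all 17 genes included 0 and excluded a 2-fold difference. As for AT1G64190, repeated values may make some of these intervals too narrow. AT1G63290 and AT5G17630 held 1 value on all Columbia arrays, and AT2G42910 held 1 value on both Landsberg erecta arrays. AT2G35390 had log2 values of 3.76 to 3.78, below the median level of 5.47, so its narrow interval may tell little of the transcript.

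**Figure D4:**
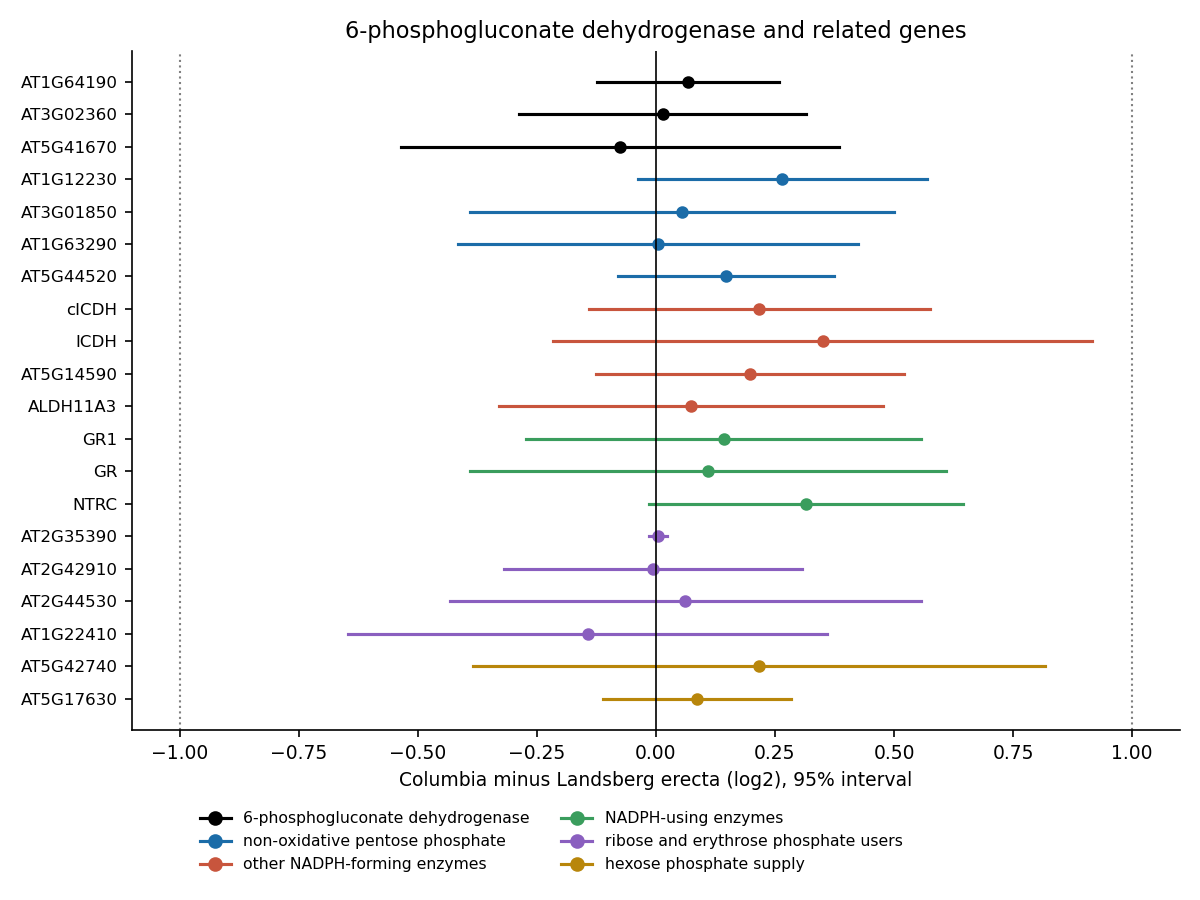
Difference between the ecotypes (Columbia minus Landsberg erecta, log2) with its 95% limma interval for the 3 6-phosphogluconate dehydrogenase genes (black) and 17 related genes, coloured by list. The dotted lines mark a 2-fold difference. Every interval includes 0, and 15 of the 17 related genes lie to the right of 0 while the black points lie at 0.07, 0.01 and -0.08.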

How the data were processed

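The deposited table gives 1 value per probe set and array. These deposited values were taken to be log2 values from their range, 2.15 to 15.1. Per the labels' protocols, Trizol RNA was made into biotin-labelled cRNA for Affymetrix arrays. Background correction, normalization and summarization by the authors are not given in the sources used here. The scale and centring of the deposited log2 values beyond this stay unknown. Of 22810 probe sets, 64 controls were left out. Names were taken from the platform's annotation and brought up to date with RefSeq (assembly TAIR10.1): 13513 probe sets had 1 gene, 503 had several and the others none, and 13436 matched RefSeq.

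Columbia minus Landsberg erecta was fitted in R 4.3.3 by lmFit and eBayes of limma 3.58.1, without covariates or filter. P-values were adjusted by Benjamini-Hochberg over 22746 probe sets, with a threshold of 0.05 and 95% intervals. The fit was tried on simulated data with normal noise. Such noise lacks the repeated values of the deposited table, so it cannot show how the fit handles them. Gaps between genes were tested by exact permutation. The number of arrays limits the precision. The limma p-values set a difference against the spread between arrays within ecotypes, moderated over all probe sets. Permutation p-values rank it among the splits of the arrays. No other source of variation enters either. Genes with several probe sets are read from the brightest.

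The 3 genes, the lists and the tests were chosen with earlier results of these data known. Named were the 3 genes and all listed pentose phosphate genes with a named probe set. Also named were up to 2 per direction with the smallest p from each other pathway list. So were the 3 genes most like each 6-phosphogluconate dehydrogenase gene. The markers named beside them (CLV3, LAS, RCA, LHCB4.1, GUT2, AMS, EMS1 and SPL) come from marker lists. As alternatives, arrays were brought to equal medians or quantile normalized, probe sets whose mean was under the 25th or 50th percentile were dropped, and the fit was repeated with a trended or robust eBayes, with array weights, without each array in turn, with the replicate number as a block and without probe sets that did not vary.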

Additional observations from a re-analysis of the deposited data

How the results depend on the processing

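The count of 6-phosphogluconate dehydrogenase genes called stayed at 0 under every alternative. In all but 2 of the limma fits 0 probe sets passed the adjusted threshold; 1014 of 22746 (4.46%) were called without Landsberg erecta replicate 1 and 935 (4.11%) without replicate 2. Of the 3 genes, AT1G64190 kept its direction throughout. With single arrays left out, the difference ranged from -0.038 to 0.090 for AT3G02360, from -0.28 to 0.13 for AT5G41670, from 0.02 to 0.09 for AT1G64190, from 0.0034 to 0.131 for the gap of AT1G64190 to AT3G02360, from -0.047 to 0.33 for that of AT1G64190 to AT5G41670 and from -0.067 to 0.25 for that of AT3G02360 to AT5G41670. These fits rest on 4 arrays. With the replicate number as a block, AT3G02360 turned to -0.0096, and AT1G64190 and AT5G41670 had 0.02 and -0.11. Columbia replicate 3 has no partner and does not enter these block values. The labels do not say that the numbers pair arrays, and deviations of same-numbered arrays correlated across probe sets at -0.02 and 0.08. Pathway genes called numbered 0 to 2 when an array was dropped: 1 without Landsberg erecta replicate 1 (AT1G63290) and 2 without replicate 2 (AT1G63290, with the opposite sign, and AT5G17630). Both genes had 3 identical Columbia values. With 1 Landsberg erecta array left, the spread comes from Columbia alone, so these calls rest on a Columbia spread of 0. These counts of 1 and 2 of 17 stand beside the 4.46% and 4.11% above. The median of the non-oxidative genes ranged from 0.0088 to 0.209 in these fits.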
